A study of Mus musculus with 6 samples.

Results

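The Ube2 genes encode the ubiquitin-conjugating enzymes, or E2 enzymes, and their close relatives. They were chosen by name from a table of lung transcripts: every Ensembl transcript whose gene symbol begins with Ube2 and a letter was taken, and symbols ending in "ps", which mark pseudogenes, were left out. This gave 36 genes with 156 transcripts, of 22158 gene symbols and 70782 Ensembl transcripts in the table. A single pseudogene, Ube2n-ps1, passed the name rule because its symbol ends in a digit, so 35 of the members are not pseudogenes. Members had between 1 and 14 transcripts, and 28 had 2 or more.

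RNA of whole lungs was sequenced from mice of the inbred strain BALB/c, with an age given as 9 weeks. One group had fine particulate matter, PM2.5 (particles of at most 2.5 µm), instilled into the trachea at 5 mg per kg of body weight in 50 µl of saline every week over 8 weeks, and the other had saline alone in the same volume and on the same schedule. Each group had 3 libraries, numbered 2, 3 and 4, and nothing in the labels ties the libraries of a group to separate mice, so the tests measure the spread between libraries, which may be technical. All 10 lung markers checked (surfactant, airway, alveolar and endothelial genes) were found, and none was at 0 in every library.

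Ubiquitin is first activated by an E1 enzyme, passed to the active-site cysteine of an E2, and transferred with the help of an E3 ligase to a substrate. The E2 sets much of the outcome: some add the first ubiquitin, others build chains through lysine 48, lysine 63 or lysine 11 of ubiquitin, and a few carry SUMO, NEDD8, ISG15 or FAT10 in place of ubiquitin. In the lung this system turns over surface receptors and ion channels, misfolded surfactant proteins and inflammatory signalling proteins.

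Values are FPKM, fragment numbers divided by the length of the transcript and the depth of the library, so that levels of genes of different length can be compared. Library sums were 353805 to 373635 FPKM with PM2.5 and 345089 to 388125 FPKM with saline. From the spacing of low values, depth was estimated at 18.7 to 21.9 M fragments with PM2.5 and 20.9 to 22.0 M with saline. At such depth 3 fragments on a transcript of 1 kb are worth 0.137 to 0.160 FPKM with PM2.5 and 0.136 to 0.144 FPKM with saline, counting error only. Transcripts named MERGE, which the table places in no gene, took up 17.6% to 20.6% of each library's FPKM, and fragments assigned to them are missing from every gene value. Across the genes tested, none an independent replicate, Pearson correlations of log2 values were 0.923 to 0.933 within PM2.5, 0.938 to 0.942 within saline and 0.906 to 0.929 between the groups.

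The Ube2q1 value was about 4 times as high in the PM2.5 libraries as in the saline libraries. Ube2q1 was the only member past the threshold in the comparison of gene levels, and it lost that call in 3 of 17 alternative fits. Abundant members such as Ube2d3, Ube2d2a, Ube2v1 and Ube2z did not pass the threshold. Summed over all 36 members, the family had 470, 455 and 502 FPKM in the PM2.5 libraries and 469, 429 and 463 FPKM in the saline libraries, ranges that overlap. For several members the widest differences lay between libraries of the same group, often in a single transcript of the gene.

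Of the 36 members, 33 had a mean of at least 0.5 FPKM and were tested, and 3 (Ube2d2b, Ube2ql1 and Ube2u) were below it. With limma on log2(FPKM + 0.5) and Benjamini-Hochberg adjustment over all 14865 genes tested, 1 member was higher with PM2.5 and 0 were lower at an adjusted p under 0.05, which is 3.03% of those tested. Over all genes 0.0942% passed, with 0.0740% higher and 0.0202% lower, so a count of 1 rests on Ube2q1 alone. At an unadjusted p under 0.05 there were 3 members, 2 higher (Ube2q1, Ube2b) and 1 lower (Ube2j2), which is 9.09% against 11.5% of all genes (3.66% higher and 7.82% lower). The libraries of the groups did not overlap for 5 members, 15.2% of those tested against 18.8% of all genes (7.04% higher and 11.8% lower). They were higher with PM2.5 for 4 (Ube2q1, Ube2b, Ube2o and Ube2q2) and lower for 1 (Ube2j2). Log2 fold changes, PM2.5 over saline, were positive for 17 members and negative for 16, with a median of 0.04 beside -0.03 over all genes tested. For 21 members the size was under 0.25. These shares lie near the background, apart from the Ube2q1 call.

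**Figure D1:**
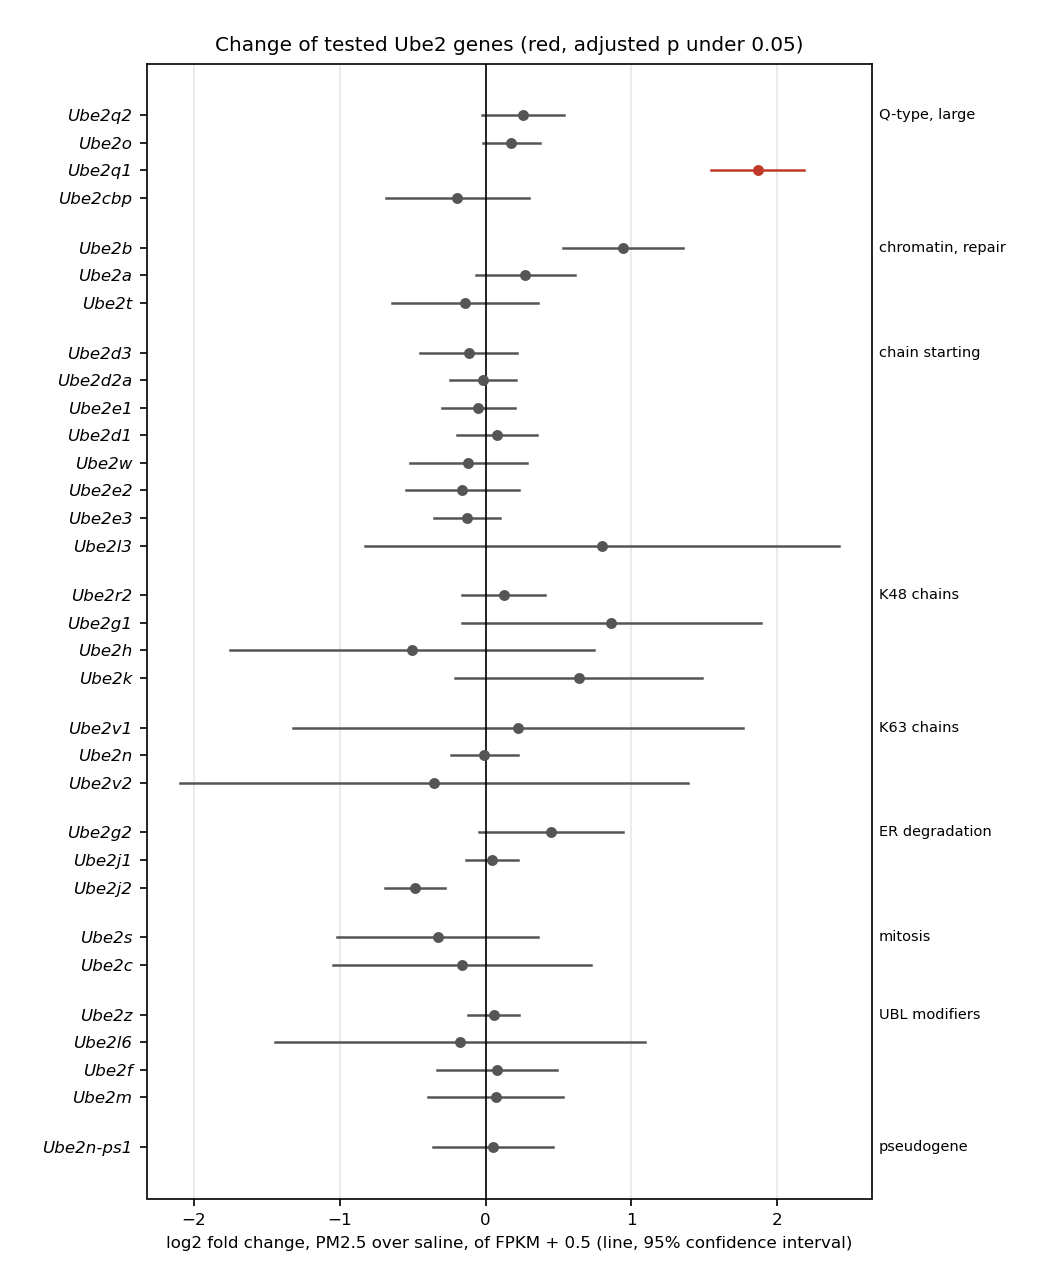
Log2 fold change of 32 of the 33 tested Ube2 genes, PM2.5 over saline, on the scale of FPKM + 0.5, with 95% confidence intervals (lines), grouped by role. Ube2q1, in red, is at 1.87 and is the only gene with an adjusted p under 0.05, while Ube2l3, Ube2v1 and Ube2v2 have the widest intervals.

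Q-type enzymes carry a long extension before the catalytic domain, and in mice Ube2q1 is needed for normal female fertility. Ube2q1 lies on chromosome 3 from 89773616 to 89784000 on the plus strand (mm10). It had 10.7, 13.4 and 11.5 FPKM in the PM2.5 libraries and 2.52, 2.97 and 3.18 FPKM in the saline libraries. The lowest PM2.5 library was more than 3 times the highest saline library, so the groups stood apart, and within each group the libraries lay close together. The means were 11.9 ± 1.37 FPKM with PM2.5 and 2.89 ± 0.340 FPKM with saline (SD, n = 3 each), a ratio of 4.10. On the log2 scale the fold change was 1.87 ± 0.13 (SE), with an adjusted p of 0.0172 from limma. By p it ranked number 6 among the 14865 genes. Leaving out PM2.5 replicate 4 raised the adjusted p from limma to 0.0745, and leaving out saline replicate 3 raised it to 0.0600. With library number as a block in the fit it was 0.142. The log2 fold change stayed between 1.72 and 2.00 in all 17 alternatives. In RNA from whole tissue, a change in the number of cells that express a gene and a change in RNA per cell cannot be told apart.

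The rise of Ube2q1 was carried by a single transcript. ENSMUST00000038356, which spans the whole gene, had 9.93, 12.7 and 10.7 FPKM with PM2.5 and 1.59, 1.97 and 2.03 FPKM with saline, which is 2.29 ± 0.15 (SE) as a log2 fold change, with an adjusted p of 0.00709 from limma over 60525 transcripts. ENSMUST00000199427, which ends at 89777419 and so covers only the first part of the gene, had 0.768, 0.678 and 0.809 FPKM with PM2.5 and 0.924, 0.997 and 1.15 FPKM with saline (log2 fold change -0.28, adjusted p = 0.590 with limma). The full-length transcript was higher in every PM2.5 library, and the short transcript was a little lower in each, without passing the test. With library number as a block, the full-length transcript was not called (adjusted p = 0.154 with limma). As a share of the gene, the full-length transcript made up 92.8%, 94.9% and 93.0% with PM2.5 and 63.3%, 66.4% and 63.7% with saline. The test of transcript usage in limma's diffSplice, which asks whether transcripts of a gene change by different amounts, gave an adjusted p of 0.000157 over 7381 genes. That call was kept in each of the 13 alternatives that tested both transcripts, with adjusted p between 2.37e-05 and 0.00762. On simulated data the usage test gave more false calls than its threshold allows, so its adjusted p can be too low.

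No other Ensembl gene in the table overlaps Ube2q1, and no NONCODE transcript on its strand lies at least 50% inside it. NONCODE transcripts on the opposite strand were not examined. Neither neighbour that could be tested was called. Adar, an RNA-editing enzyme just upstream, had 9.46 ± 0.603 FPKM with PM2.5 and 8.42 ± 0.785 FPKM with saline (adjusted p = 0.594 with limma). She, a signalling adaptor downstream, had 23.6 ± 2.21 FPKM with PM2.5 and 23.3 ± 2.06 FPKM with saline (adjusted p = 0.973 with limma). The 9 listed markers of plasma cells, the antibody-secreting cells, were all detected. They summed to 562, 776 and 1044 FPKM with PM2.5 and to 231, 193 and 284 FPKM with saline. All 8 tested had positive fold changes. Of these, 0 were called in the same limma fit and 4 had an unadjusted p under 0.05. Among all genes tested, 3.66% were higher and 7.82% lower at that level. The part of plasma cells in the Ube2q1 difference was not tested. Cardiac and skeletal muscle markers, 12 of 12 found and none at 0 throughout, summed to 17.1 to 203 FPKM with PM2.5 and 133 to 302 FPKM with saline. All 10 tested had negative fold changes, with a median log2 fold change of -1.72, of which 0 were called in the limma fit and 4 had an unadjusted p under 0.05. Of the 10 lung markers, 0 were called and 3 were lower at an unadjusted p under 0.05, with libraries that did not overlap: the endothelial Cldn5 had 98.1 ± 8.33 FPKM with PM2.5 and 215 ± 47.3 FPKM with saline, the airway gene Scgb1a1 had 4045 ± 1293 FPKM with PM2.5 and 7282 ± 859 FPKM with saline, and the alveolar Hopx had 2.24 ± 0.666 FPKM with PM2.5 and 4.10 ± 0.796 FPKM with saline. The other lung markers listed had libraries that overlapped between the groups. Endothelial Pecam1 had 152 ± 15.4 FPKM with PM2.5 and 154 ± 18.1 FPKM with saline. Alveolar Ager had 363 ± 54.0 FPKM with PM2.5 and 401 ± 25.7 FPKM with saline. Surfactant gene Sftpb had 1708 ± 168 FPKM with PM2.5 and 1684 ± 139 FPKM with saline. Other markers spread widely within both groups. Sftpc, also a surfactant gene, had 6618, 588 and 1952 FPKM with PM2.5 and 8108, 687 and 861 FPKM with saline. Ciliated Foxj1 had 6.14, 1.48 and 0 FPKM with PM2.5 and 11.4, 2.94 and 4.94 FPKM with saline. The summed lung markers overlapped, at 8278 to 11762 FPKM with PM2.5 and 10133 to 18967 FPKM with saline. The part of muscle or of these lung cells was not tested either.

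The promoter windows of Ube2q1, Ube2b and Ube2j2 are printed because these are the 3 members with an unadjusted p under 0.05 in the gene comparison. RefSeq gives 2 such windows each for Ube2b and Ube2j2, and the window whose start lies nearest to the principal transcript is the one shown. The windows come from RefSeq on build GRCm38.p6 and run from 250 bases before to 50 bases after the annotated start. Of the 36 members, 28 were matched to 39 such promoters. Searches for the TATA box, CCAAT box, antioxidant response element core and cAMP response element found no match in the printed windows. Capitals mark matches, on either strand, to GGGCGG (the GC box), GCGTG (the core bound by the aryl hydrocarbon receptor), CACGTG (an E-box) and CCGGAAG (an ETS core), and none of these matches overlap each other.
Ube2q1, chr3:89773359-89773658, plus strand: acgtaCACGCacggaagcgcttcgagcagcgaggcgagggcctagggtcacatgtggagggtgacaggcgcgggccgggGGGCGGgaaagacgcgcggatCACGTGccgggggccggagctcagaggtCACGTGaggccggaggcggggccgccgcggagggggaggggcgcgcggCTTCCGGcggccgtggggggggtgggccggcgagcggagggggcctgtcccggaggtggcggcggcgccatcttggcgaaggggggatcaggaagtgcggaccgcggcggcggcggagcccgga
Ube2b, chr11:52000442-52000741, minus strand: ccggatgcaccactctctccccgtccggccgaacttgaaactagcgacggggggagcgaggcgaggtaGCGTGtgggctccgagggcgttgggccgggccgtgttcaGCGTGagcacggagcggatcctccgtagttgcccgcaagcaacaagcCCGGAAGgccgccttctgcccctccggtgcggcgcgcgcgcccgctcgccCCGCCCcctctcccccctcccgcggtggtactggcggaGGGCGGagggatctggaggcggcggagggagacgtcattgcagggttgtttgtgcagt
Ube2j2, chr4:155943563-155943862, plus strand: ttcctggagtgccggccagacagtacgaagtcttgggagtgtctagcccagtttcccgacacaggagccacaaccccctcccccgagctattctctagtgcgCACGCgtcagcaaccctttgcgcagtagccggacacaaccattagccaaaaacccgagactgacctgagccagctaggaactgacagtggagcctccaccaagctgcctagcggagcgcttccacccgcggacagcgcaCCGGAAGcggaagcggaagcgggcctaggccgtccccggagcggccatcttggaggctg

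The full-length Ube2q1 transcript begins 7 bases from the RefSeq start of this window, and the short transcript 251 bases from it. The Ube2q1 window is 77.3% G or C. It holds 2 matches to CACGTG, at -150 and -122 from the start, a count that 0.594% of all 32851 promoters reach, while 7.15% hold at least 1. Neither share was matched for base composition. CACGTG contains a CpG pair, and the Ube2q1 window holds 44 of these pairs against a median of 7 over all promoters. Among the 39 promoters of members, 3 (7.69%) hold CACGTG, and the Ube2b window that is not printed (chr11:52000737-52001036) holds 3 matches, more than Ube2q1. The members' promoters had a median G and C content of 68.7% against 52.7% over all promoters, and a median of 30 CpG pairs against 7. The GC box was in 74.4% of them against 35.7% of all promoters, and GCGTG was in 48.7% against 32.4%. GCGTG is in the 3 windows printed and in neither of the other windows of Ube2b and Ube2j2, which hold 0 matches. A match describes letters in a window and shows no binding.

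**Figure D2:**
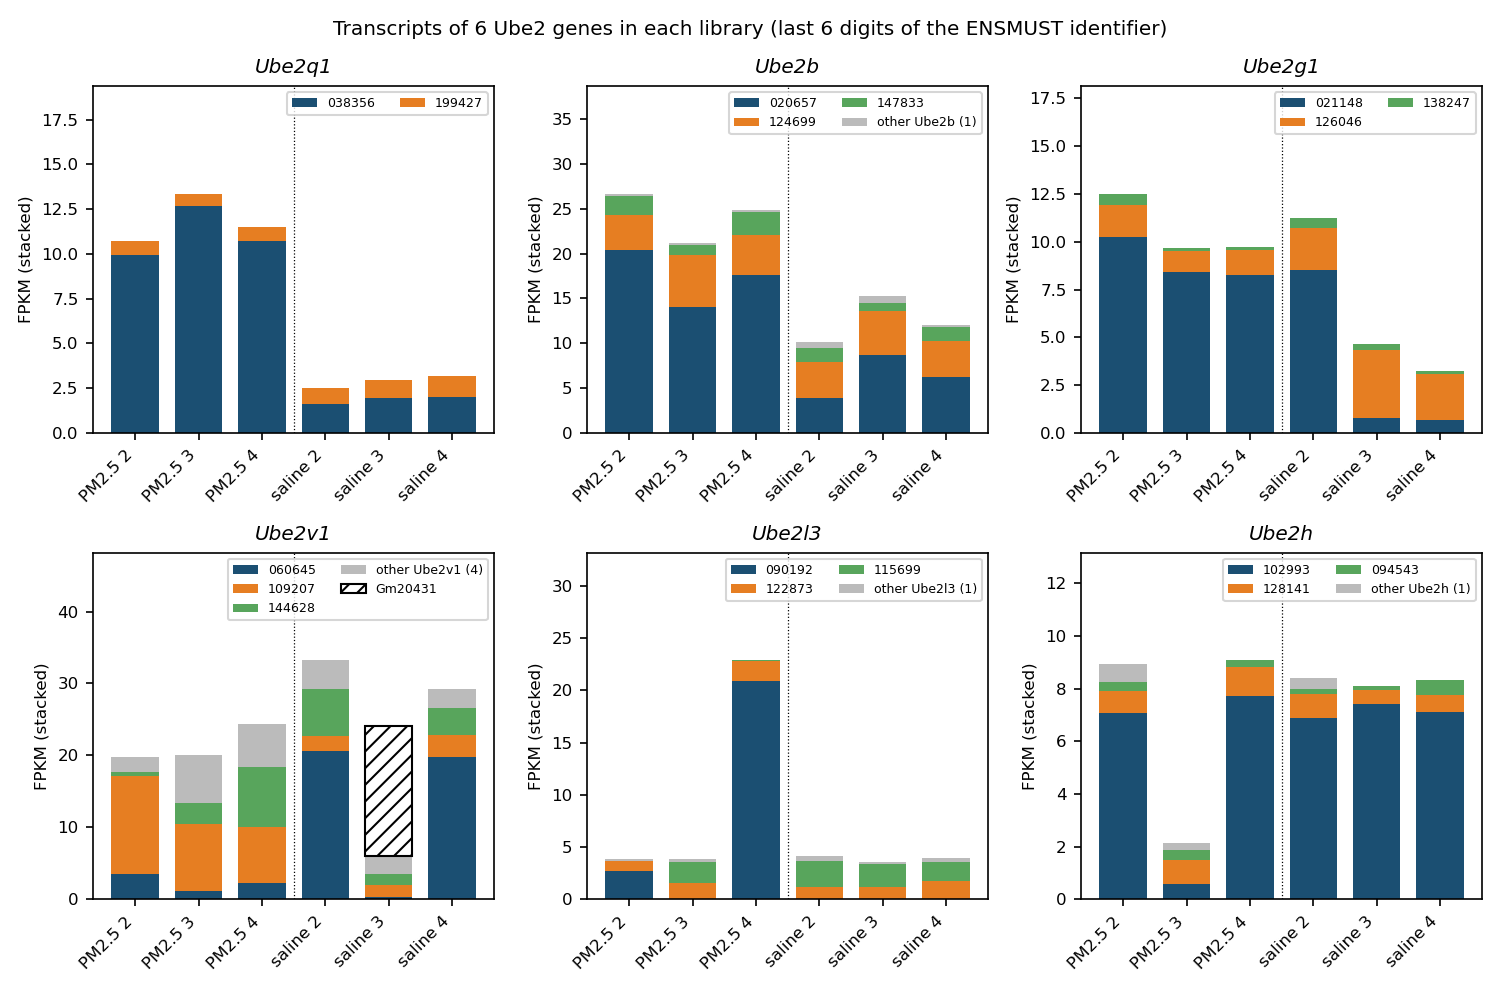
FPKM of the transcripts of 6 Ube2 genes, stacked, in each PM2.5 library (left of the dotted line) and each saline library (right), with the last digits of the Ensembl identifier in the legend; "other" gives the number of further transcripts, and the hatched part is Gm20431, a readthrough transcript across Ube2v1. The full-length Ube2q1 transcript, at the bottom of its bars, is high in the 3 PM2.5 libraries, whereas Ube2l3, Ube2h, Ube2g1 and Ube2v1 differ between libraries of the same group.

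No other large or Q-type member was called. Ube2q2, the closest relative of Ube2q1, had 11.9, 12.7 and 11.7 FPKM with PM2.5 and 11.7, 9.54 and 9.07 FPKM with saline, with a log2 fold change of 0.26, a 95% interval of -0.02 to 0.54 and an adjusted p of 0.464 from limma. The groups only just separated, since the lowest PM2.5 library and the highest saline library were almost equal. Ube2o, an unusually large enzyme that acts as both E2 and E3 and clears proteins from maturing red cells, had 10.96, 11.2 and 11.1 FPKM with PM2.5 and 10.4, 9.25 and 9.67 FPKM with saline (log2 fold change 0.18, adjusted p = 0.469 with limma). Its PM2.5 libraries were all above the saline libraries by a small margin. Markers of red cells summed to 3916 to 5712 FPKM with PM2.5 and 3646 to 4715 FPKM with saline, 11 of 12 found and none at 0 throughout. Of 8 tested, 6 had positive fold changes, 0 were called and 2 had an unadjusted p under 0.05: Alas2 had 64.3 ± 3.76 FPKM with PM2.5 and 45.7 ± 6.32 FPKM with saline, and Hbb-bt had 1146 ± 202 FPKM with PM2.5 and 528 ± 230.1 FPKM with saline, both higher in every PM2.5 library. Of all genes tested with limma, 3.66% were higher at an unadjusted p under 0.05. The other globins listed overlapped between the groups. Hba-a1 had 850 ± 663 FPKM with PM2.5 and 1141 ± 24.6 FPKM with saline. Hba-a2 had 888 ± 578 FPKM with PM2.5 and 1014 ± 862 FPKM with saline. Hbb-bs had 2152 ± 1045 FPKM with PM2.5 and 1302 ± 1100 FPKM with saline. The part of red cells in the Ube2o values was not tested. Ube2cbp, which despite its symbol is a ligase that binds Ube2c, was low at 0.533 ± 0.197 FPKM with PM2.5 and 0.672 ± 0.130 FPKM with saline.

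**Figure D3:**
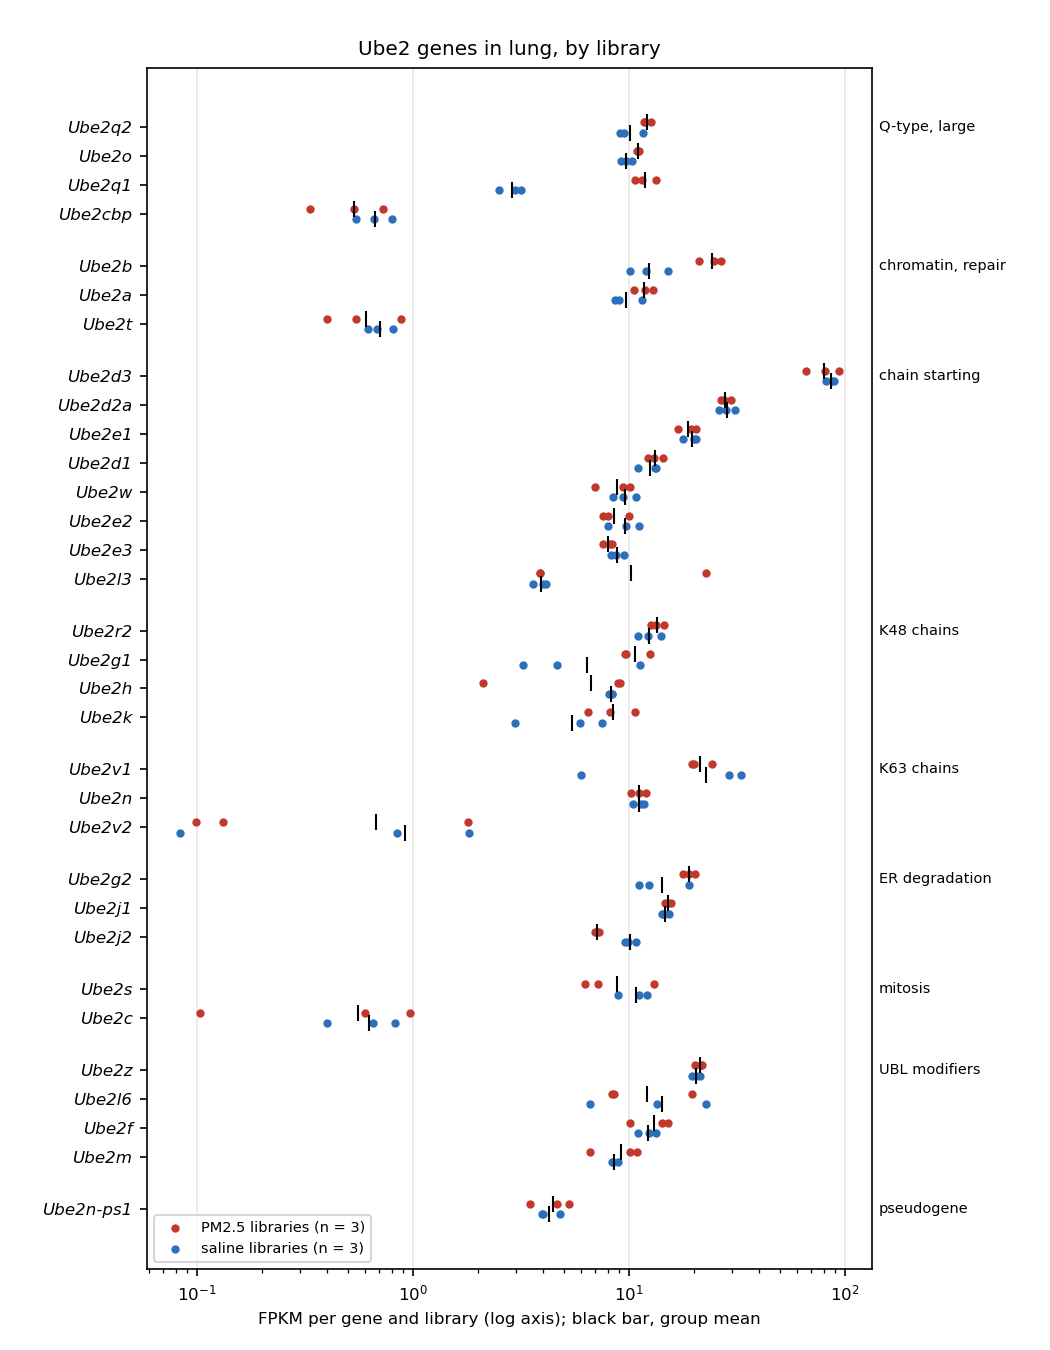
FPKM of 32 of the 33 tested Ube2 genes in each library on a log axis, PM2.5 libraries in the upper row of each gene and saline libraries in the lower, with black bars at the group means and genes grouped by role. The groups are separated for Ube2q1, Ube2b, Ube2o, Ube2q2 and Ube2j2, Ube2d3 is the most abundant member, and single libraries stand apart for Ube2l3, Ube2h and Ube2v1.

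Ube2a and Ube2b are the mouse counterparts of yeast Rad6, which with the ligases Rad18 and Rnf20-Rnf40 ubiquitinate the replication clamp and histone H2B. Ube2b (chromosome 11, 51985497 to 52000762) had 26.7, 21.1 and 24.8 FPKM with PM2.5 and 10.1, 15.3 and 12.1 FPKM with saline. Every PM2.5 library was above every saline library, with means of 24.2 ± 2.83 FPKM with PM2.5 and 12.5 ± 2.61 FPKM with saline (SD, n = 3 each). The log2 fold change of 0.94 ± 0.17 (SE) had an unadjusted p of 0.00141 and did not pass after adjustment (adjusted p = 0.172 with limma). Its principal transcript, ENSMUST00000020657, had 20.4, 14.05 and 17.6 FPKM with PM2.5 and 3.87, 8.72 and 6.19 FPKM with saline. A shorter transcript from nearly the same start, ENSMUST00000124699, had 3.97, 5.73 and 4.48 FPKM with PM2.5 and 4.05, 4.88 and 4.06 FPKM with saline. The difference between the groups thus lay in the principal transcript, whose share of the gene was 71.3% ± 4.9 with PM2.5 and 48.9% ± 9.6 with saline. The usage test for Ube2b gave an adjusted p of 0.208 with limma.

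Ube2a had 11.8 ± 1.17 FPKM with PM2.5 and 9.71 ± 1.55 FPKM with saline, with overlapping libraries (log2 fold change 0.27, adjusted p = 0.515 with limma). Its main transcript made up 77.6% to 81.7% of the gene with PM2.5 and 47.2% to 75.9% with saline. Ube2t, which ubiquitinates the Fanconi anaemia proteins after DNA damage, was near the limit of the filter at 0.610 ± 0.248 FPKM with PM2.5 and 0.706 ± 0.0980 FPKM with saline. None of the ligase partners was called. Rnf20 had 25.4 ± 2.29 FPKM with PM2.5 and 22.9 ± 1.26 FPKM with saline (adjusted p = 0.604 with limma). Rad18 had 2.77 ± 0.202 FPKM with PM2.5 and 3.28 ± 0.710 FPKM with saline.

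The 3 members that serve degradation at the endoplasmic reticulum differed from each other. Ube2j2, anchored in the membrane of the reticulum (chromosome 4, 155943831 to 155959604), had 6.96, 7.09 and 7.25 FPKM with PM2.5 and 9.91, 10.9 and 9.65 FPKM with saline. The PM2.5 libraries were all below the saline libraries and spread over less than 1 FPKM. The log2 fold change was -0.48 ± 0.09 (SE), with an unadjusted p of 0.00124 and an adjusted p of 0.162 with limma. Ube2j1, its relative in the same membrane, had 15.2 ± 0.508 FPKM with PM2.5 and 14.8 ± 0.549 FPKM with saline (log2 fold change 0.04, 95% interval -0.14 to 0.22). Ube2g2, the soluble partner of reticulum ligases, had 19.1, 20.4 and 17.8 FPKM with PM2.5 and 12.4, 11.1 and 19.1 FPKM with saline; saline replicate 4 was as high as the PM2.5 libraries. Ube2g2 overlaps Sumo3 on the same strand over 19269 bases, so fragments could be split between them.

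The transcripts of Ube2j2 changed places between libraries. ENSMUST00000024056 had 3.63, 3.77 and 2.90 FPKM with PM2.5 and 1.21, 3.94 and 0 FPKM with saline. ENSMUST00000166489, which covers nearly the same span, had 0.0754, 0.0543 and 0.0915 FPKM with PM2.5 and 3.56, 0.173 and 4.31 FPKM with saline. Saline replicate 3 therefore looked like the PM2.5 libraries in this respect, and saline replicates 2 and 4 had the reverse. Without saline replicate 3, ENSMUST00000166489 passed the transcript test (adjusted p = 0.0238 with limma) and Ube2j2 passed the usage test (adjusted p = 0.00113), against 0.519 and 0.357 with all libraries. Leaving out the saline library that resembled PM2.5 favoured these passes.

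Enzymes that start chains with many ligases made up the most abundant group. Ube2d3, used by a wide range of RING ligases, had 66.3, 80.7 and 93.7 FPKM with PM2.5 and 81.5, 87.4 and 89.5 FPKM with saline. The saline libraries fell inside the PM2.5 range, and the log2 fold change was -0.12 (95% interval -0.45 to 0.22, adjusted p = 0.781 with limma). Ube2d2a, with a nearly identical protein, had 29.8, 27.5 and 26.8 FPKM with PM2.5 and 26.1, 31.2 and 28.2 FPKM with saline. Those groups overlapped too (log2 fold change -0.02, 95% interval -0.25 to 0.21). Ube2d1, Ube2e1, Ube2e2, Ube2e3 and Ube2w, the last of which ubiquitinates the amino terminus of proteins, had log2 fold changes between -0.16 and 0.08, with adjusted p between 0.647 and 0.890 with limma. Because Ube2d genes resemble each other, fragments could be shared among them, and the split between them is uncertain. Ube2d2b was at 0.0286 ± 0.0272 FPKM with PM2.5 and 0.0375 ± 0.0325 FPKM with saline, and was not tested.

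Ube2l3 belongs to the same group but works with HECT and RING-between-RING ligases such as the linear chain complex. It had 3.87, 3.89 and 22.9 FPKM with PM2.5 and 4.12, 3.61 and 3.996 FPKM with saline. PM2.5 replicate 4 alone was high, and the other PM2.5 libraries lay within the saline range. The whole excess was in ENSMUST00000090192, which had 2.74, 0 and 20.9 FPKM with PM2.5 and was listed at 0 in all saline libraries, while ENSMUST00000115699 had 0.0124, 2.07 and 0.0731 FPKM with PM2.5 and 2.48, 2.13 and 1.77 FPKM with saline. The mean with PM2.5, 10.2 ± 10.98 FPKM, therefore describes no library, and the log2 fold change of 0.80 had a 95% interval of -0.82 to 2.42. The 2 transcripts cover nearly the same span, and a value listed at 0 can be a failed estimate.

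Of the 4 enzymes that build lysine 48 chains, which mark proteins for the proteasome, 0 were called, and for Ube2g1 and Ube2h the libraries of 1 group lay far apart. Ube2g1 had 12.5, 9.65 and 9.73 FPKM with PM2.5 and 11.2, 4.67 and 3.23 FPKM with saline. Saline replicate 2 lay within the PM2.5 range and the other saline libraries were low (log2 fold change 0.86, 95% interval -0.16 to 1.88, adjusted p = 0.499 with limma). Its full-length transcript ENSMUST00000021148 had 10.2, 8.43 and 8.26 FPKM with PM2.5 and 8.53, 0.782 and 0.684 FPKM with saline. Without saline replicate 2 this transcript passed the transcript test (adjusted p = 0.0138 with limma) and Ube2g1 passed the usage test (adjusted p = 0.000383). With all libraries the adjusted p from limma was 0.529 and 0.208. Saline replicate 2 was the saline library that resembled PM2.5, so leaving it out favoured a pass. The shorter ENSMUST00000126046 had 1.69, 1.10 and 1.33 FPKM with PM2.5 and 2.18, 3.54 and 2.38 FPKM with saline, lower in every PM2.5 library (log2 fold change -0.76, adjusted p = 0.452 with limma). With the 9 NONCODE transcripts inside the gene added, Ube2g1 had 27.8 ± 1.24 FPKM with PM2.5 and 19.97 ± 2.66 FPKM with saline, groups that no longer overlapped, and the log2 fold change was 0.48, with an adjusted p of 0.237 from limma.

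Ube2h, the E2 of the CTLH ligase complex, had 8.94, 2.12 and 9.08 FPKM with PM2.5 and 8.39, 8.08 and 8.34 FPKM with saline. PM2.5 replicate 3 alone was low. Its full-length transcript ENSMUST00000102993 was at 0.584 FPKM there and at 6.88 to 7.74 FPKM in the other 5 libraries. Ube2k, which extends lysine 48 chains by itself, had 10.7, 8.17 and 6.45 FPKM with PM2.5 and 5.95, 2.97 and 7.53 FPKM with saline (log2 fold change 0.64, 95% interval -0.21 to 1.48). Ube2r2, a partner of cullin ligases, had 13.6 ± 0.980 FPKM with PM2.5 and 12.5 ± 1.56 FPKM with saline (log2 fold change 0.12, adjusted p = 0.719 with limma). With NONCODE transcripts inside it added, its libraries had 27.6 to 29.4 FPKM with PM2.5 and 22.2 to 24.1 FPKM with saline, which did not overlap (adjusted p = 0.293 with limma).

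Lysine 63 chains, which signal in inflammation and DNA repair, are made by Ube2n bound to an inactive variant, Ube2v1 or Ube2v2. Ube2n had 11.98, 10.3 and 11.1 FPKM with PM2.5 and 11.7, 11.3 and 10.5 FPKM with saline, among the members that differed least (log2 fold change -0.01, 95% interval -0.24 to 0.22). Its pseudogene Ube2n-ps1, which lies within Clock on the same strand, had 4.48 ± 0.899 FPKM with PM2.5 and 4.27 ± 0.487 FPKM with saline. Reads of the gene and the pseudogene could be exchanged.

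Ube2v1 had 19.7, 20.04 and 24.3 FPKM with PM2.5 and 33.2, 5.99 and 29.3 FPKM with saline. Saline replicate 3 stood far below the others of its group, and in that library alone the readthrough transcript Gm20431, which runs from Tmem189 through Ube2v1, was listed at 18.04 FPKM, against 0 in the other 5. The log2 fold change was 0.22 (adjusted p = 0.928 with limma). Adding Gm20431, an alternative chosen after seeing the data, gave 21.4 ± 2.57 FPKM with PM2.5 and 28.8 ± 4.62 FPKM with saline and turned the log2 fold change to -0.42 (adjusted p = 0.374). Without saline replicate 3 it was -0.54 (adjusted p = 0.491). Inside the gene, ENSMUST00000109207 had 13.6, 9.39 and 7.75 FPKM with PM2.5 and 2.06, 1.68 and 3.06 FPKM with saline, higher in every PM2.5 library (log2 fold change 1.95 ± 0.28, SE, adjusted p = 0.132 with limma). The other main transcript, ENSMUST00000060645, had 3.52, 1.10 and 2.30 FPKM with PM2.5 and 20.7, 0.365 and 19.7 FPKM with saline, low in all PM2.5 libraries and in saline replicate 3. Ube2v2 was low and uneven, with 1.81, 0.0997 and 0.133 FPKM with PM2.5 and 0.848, 0.0836 and 1.82 FPKM with saline.

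Among members that carry other modifiers, Ube2z, which takes FAT10 and ubiquitin from the E1 Uba6, had 20.4, 21.7 and 21.8 FPKM with PM2.5 and 20.4, 19.7 and 21.3 FPKM with saline. It was among the steadiest members, with a log2 fold change of 0.06 (95% interval -0.12 to 0.23). The NEDD8 enzymes Ube2m and Ube2f had log2 fold changes of 0.07 and 0.08, with adjusted p of 0.920 and 0.889 with limma. Ube2l6, the ISG15 enzyme and a target of interferon, had 19.6, 8.53 and 8.37 FPKM with PM2.5 and 22.8, 13.5 and 6.61 FPKM with saline. It spread more than 2-fold within each group (log2 fold change -0.18, adjusted p = 0.931 with limma). The 12 interferon-stimulated genes listed, none at 0 throughout, summed to 82.2 to 96.6 FPKM with PM2.5 and 81.0 to 108 FPKM with saline.

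Of the mitotic members, Ube2s, which extends lysine 11 chains on the anaphase-promoting complex, had 7.19, 13.0 and 6.25 FPKM with PM2.5 and 8.90, 12.1 and 11.2 FPKM with saline. PM2.5 replicate 3 was the highest of all 6 libraries and the other PM2.5 libraries the lowest. Ube2s overlaps Rpl28, an abundant ribosomal protein gene, on the opposite strand over 521 bases, which an unstranded library cannot separate. Ube2c, which starts those chains, was at 0.559 ± 0.436 FPKM with PM2.5 and 0.626 ± 0.214 FPKM with saline. Markers of proliferating cells, 11 of 12 found and none at 0 throughout, summed to 14.03 to 15.2 FPKM with PM2.5 and 13.3 to 17.0 FPKM with saline.

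Transcripts of the family were tested alongside all others. Of 156 member transcripts, 96 passed the filter, and 1 was called, the full-length Ube2q1 transcript, beside 0.152% of 60525 transcripts (0.0777% called higher). At an unadjusted p under 0.05 there were 10 member transcripts, 5 higher and 5 lower, or 10.4% against 9.46% of all transcripts. Transcript usage could be tested in 24 members, with 1 called (Ube2q1) beside 1.86% of 7381 genes. An unadjusted usage p under 0.05 was found for 8 of the 24 (33.3%), against 12.6% of all genes. Of 69 member transcripts that made up at least 10% of their gene, 16 had shares that did not overlap between the groups (23.2%, against 13.7% of 24089 such transcripts in the table); they belonged to Ube2a, Ube2b, Ube2d1, Ube2g1, Ube2g2, Ube2j2, Ube2q1, Ube2r2 and Ube2v1. No difference between these shares and the background was tested.

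Large differences between libraries of a group were counted in the family and in the whole table. Of 95 member transcripts that reached 1 FPKM in some library, 26 varied at least 5-fold within a group (27.4%, in 16 genes), against 24.8% of 32545 Ensembl transcripts. At the gene level, 11 of 33 members varied at least 2-fold within a group (33.3%, against 25.2% of all genes tested). Transcripts of a gene can share sequence, so the split between them is less certain than their sum.

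**Figure D4:**
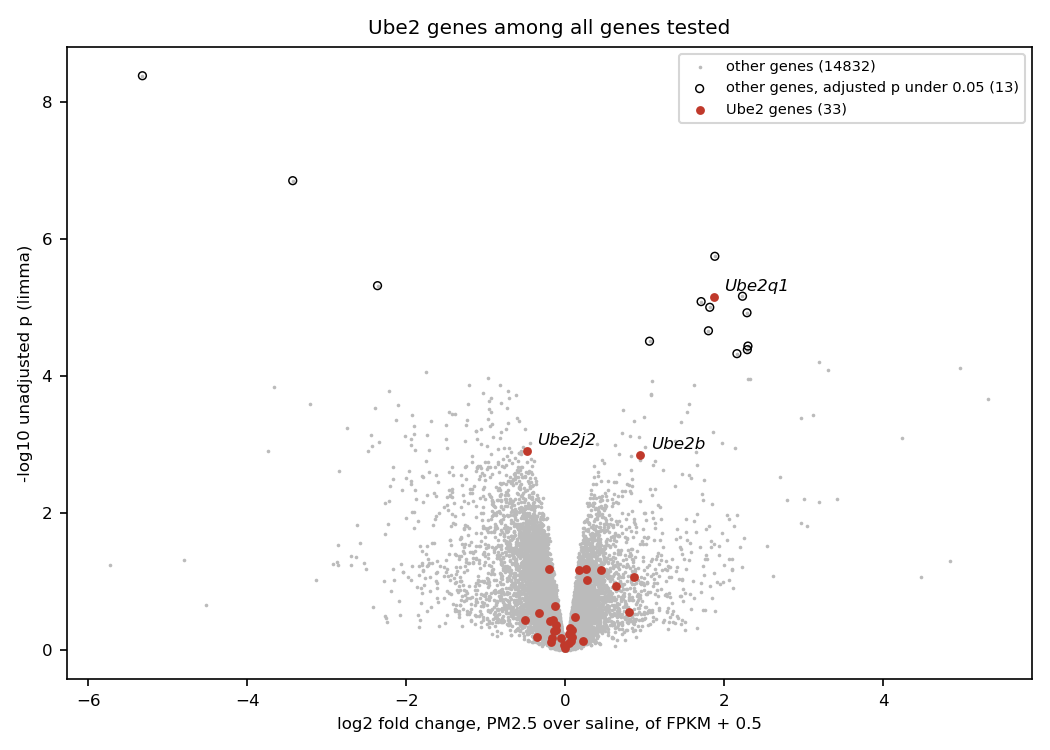
Log2 fold change, PM2.5 over saline, on the scale of FPKM + 0.5 (x axis) against the −log10 of the unadjusted limma p (y axis) for the 14865 genes tested, with the 33 Ube2 genes in red and the 13 other genes past the adjusted threshold circled. Ube2q1 lies among the called genes, Ube2b and Ube2j2 lie below them, and the other members lie at low −log10 p.

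The genes that work with the family were read from 13 lists holding 223 names of E1 enzymes, ligases, deubiquitinases, proteasome subunits and modifiers. Of 215 tested, 1 was called higher and 0 lower (0.465%, against 0.0942% of all genes), and the median log2 fold change was 0.01. The gene called was Cbl, a RING ligase that takes activated receptor tyrosine kinases out of action and works with Ube2d enzymes. It had 16.6, 16.6 and 17.9 FPKM with PM2.5 and 4.41, 4.66 and 3.76 FPKM with saline, or 1.88 ± 0.10 (SE) as a log2 fold change, with an adjusted p of 0.00876 from limma. The groups were far apart, but leaving out PM2.5 replicate 4 raised the adjusted p to 0.0594, within 0.00603 to 0.142 over 17 alternatives. At an unadjusted p under 0.05 there were 10 higher and 9 lower, or 8.84% of those tested, against 11.5% of all genes.

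Upstream of the family, 0 of 9 E1 enzymes and 0 of 4 ubiquitin genes were called with limma or had an unadjusted p under 0.05. Of 24 tested HECT and RING-between-RING ligases, 3 were higher and 0 lower at an unadjusted p under 0.05 with 0 called; Smurf2, a ligase of the TGF-beta pathway, had 52.6, 53.7 and 53.2 FPKM with PM2.5 and 47.7, 40.8 and 44.7 FPKM with saline (adjusted p = 0.328 with limma). Among 14 reticulum ligases and their cofactors 2 were higher and 0 lower at an unadjusted p under 0.05 with 0 called; Derl3, also on the list of plasma cell markers, had 1.28 ± 0.592 FPKM with PM2.5 and 0.437 ± 0.0762 FPKM with saline (adjusted p = 0.321 with limma). Downstream, 0 of 17 subunits of the proteasome core were called or had an unadjusted p under 0.05. Of 17 regulatory subunits, 2 were lower at an unadjusted p under 0.05 with 0 called; Psmd8 had 4.65, 3.93 and 5.44 FPKM with PM2.5 and 8.62, 6.94 and 7.63 FPKM with saline (adjusted p = 0.223 with limma). Of 33 deubiquitinases, 3 were higher and 2 lower at an unadjusted p under 0.05 with 0 called; Tnfaip3, which edits chains to damp NF-kB signalling, had 9.56, 7.08 and 6.02 FPKM with PM2.5 and 11.9, 12.6 and 11.7 FPKM with saline (adjusted p = 0.267 with limma).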

How the data were processed

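For each transcript the authors deposited a value in every library, taken here to be FPKM. The file header names no unit, and FPKM was inferred from column sums and from the spacing of low values, where 40.2% to 43.6% lay within 0.05 of a whole step, so no counts were recovered. HISAT2, bcl2fastq and build mm10 are named, without versions, in the submitters' processing notes. The program that made the values is not given in the sources used here, nor is its annotation. Per the labels' protocols, Trizol RNA (2 µg) entered a NEBNext Ultra kit, which does not mark strand.

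Ensembl transcripts were summed per symbol. Features with a mean of at least 0.5 FPKM were compared as log2(FPKM + 0.5) in limma 3.58.1 (R 4.3.3, with version 1.17.8 of data.table), with a mean trend, 2-sided, Benjamini-Hochberg adjustment over all features and a threshold of 0.05; usage was tested with diffSplice. This scale understates changes of low genes. On simulated data the gene fit (14694 genes) recovered 66.0% of 2-fold and 88.3% of 4-fold changes with 8 false calls. The transcript fit (57934 transcripts) recovered 0% and 34.9% with 2, and the usage fit (7085 genes) 12.8% and 55.7% with 26. For usage, false calls made up a larger share of all calls than the threshold of 0.05 allows. Simulated noise was independent and normal on the log2 scale, and more features were changed than were called here. Recovery in these data can therefore be lower.

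Some genes are not reported here by name. Members, lists and motifs were chosen with earlier results of these data known. Values per library are given for members called, with an unadjusted p under 0.05 or with the 5 highest means; other members by transcript or to show spread, chosen after their values were seen. Pathway genes named were called or had among the 2 lowest p of their list, save Rnf20 and Rad18, named as Ube2b partners. Alternatives were pseudocounts 1 and 0.1, no filter or a mean of 2, median-ratio and quantile scaling, robust moderation and array weights. Others were a replicate block, each library left out, and sums adding NONCODE transcripts at least 50% inside a gene on its strand. Same-numbered libraries deviated with correlations of -0.03, -0.03 and 0.05. With 3 libraries per group, such values cannot show whether the numbers pair samples.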

Additional observations from a re-analysis of the deposited data

How the results depend on the processing

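Ube2q1 was called higher in the gene comparison in 14 of 17 alternatives. It lost its call in 3, without PM2.5 replicate 4, without saline replicate 3 and with the replicate block (log2 fold change 1.87, adjusted p = 0.142 with limma). Among the 14, adding NONCODE transcripts or Gm20431 left the Ube2q1 values unchanged, so these alternatives say little about its call. The full-length Ube2q1 transcript lost its call with the replicate block only (2.29, adjusted p = 0.154 with limma), while the usage call was kept. The labels do not say whether library numbers pair the samples, and correlations over 3 libraries per group cannot settle it. Under the replicate block 0 members, 0 pathway genes, 0 member transcripts and 1 gene of all tested were called, against 1, 1, 1 and 14 without it. The adjusted p of Cbl from limma was 0.142 there. Leaving out each library gave 0 to 1 members, 0 to 1 pathway genes, 1 to 2 member transcripts, 1 to 2 members for usage and 5 to 26 genes in all. The added usage calls included Ube2g1, Ube2j2 and Ube2l3 (without PM2.5 replicate 3). A mean of at least 2 FPKM left 9 genes called, and 0 members for usage because the short Ube2q1 transcript was then not tested; with no filter 2 members were called for usage, Ube2q1 and Ube2b (adjusted p = 0.0331). The log2 fold change of Ube2d2a turned to 0.022 with median-ratio scaling and ran from -0.080 to 0.045 over the left-out libraries, that of Ube2d3 ran from -0.23 to 0.015, turning without PM2.5 replicate 2, and that of Ube2v1 from -0.54 without saline replicate 3 to 0.65, with -0.42 when Gm20431 was added. These members were called in no alternative, and the cause was not tested. Usage was not run with array weights. Depth limits the lowest members, Ube2d2b, Ube2ql1, Ube2u, Ube2v2, Ube2c and Ube2t.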

Other observations

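Ube2q1 and Cbl, the called E2 and the called ligase, had similar log2 fold changes of 1.87 and 1.88. Both were compared with the same saline libraries. Summed by role, the chromatin and repair members had 38.9, 32.3 and 38.6 FPKM with PM2.5 and 19.5, 25.0 and 24.2 FPKM with saline, and the large and Q-type members had 34.3, 37.6 and 34.9 FPKM with PM2.5 and 25.4, 22.5 and 22.8 FPKM with saline. Without Ube2b the chromatin and repair members had 12.2, 11.1 and 13.8 FPKM with PM2.5 and 9.44, 9.70 and 12.1 FPKM with saline, which overlap, so that separation is the one of Ube2b alone. Without Ube2q1 the large and Q-type members had 23.6, 24.3 and 23.4 FPKM with PM2.5 and 22.9, 19.5 and 19.6 FPKM with saline. In the other role groups the summed libraries overlapped. The 5 most abundant members held 40.9% of the family's FPKM with PM2.5 and 46.0% with saline. NONCODE transcripts at least 50% inside a member on its strand numbered 66, in 23 genes. Of these, NONMMUT010615.2, inside Ube2g1, had 1.85, 1.94 and 1.91 FPKM with PM2.5 and 1.27, 0.935 and 1.29 FPKM with saline (adjusted p = 0.432 with limma).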
